A study of Mus musculus with 4 samples.

Results

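The genes described here are 7 of the 32285 genes counted in the deposited matrices, taken by their symbols in both gene expression matrices: the nuclear hormone receptors Esr1 and Pgr, the prolactin receptor Prlr, the transcriptional co-activator Cited1, the secreted ligands Tnfsf11 and Wnt4, and the surface protein Prom1. Each symbol stood for a single row in each matrix. Luminal-like cells, in which the genes are compared, are clusters named by other markers. The cells came from mammary organoids of virgin mice aged 8 to 9 weeks, grown from fat pads freed of lymph nodes and kept in COL1 (collagen), STIFF, MATR (Matrigel) or SOFT culture, with no treatment, genotype or strain named. There was 1 culture per condition, so no comparison has a replicate, no test across cultures was possible, and every interval given covers counting error only. Per the labels, the pool of COL1 and STIFF counts as stiff and that of MATR and SOFT as soft. Cells of COL1 and STIFF shared a channel and carried hashtag antibodies, as did cells of MATR and SOFT in the other channel. Which hashtag marks which culture is taken from how the matrices are named, since the labels do not state it, and an exchange of tags would turn COL1 over STIFF and MATR over SOFT around. For COL1 over MATR, and likewise STIFF over SOFT, the culture cannot be told apart from its channel.

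In the mammary epithelium, luminal cells divide into a hormone-sensing class, which carries the receptors for oestrogen, progesterone and prolactin, and a hormone-receptor-negative class of progenitors and future milk-producing cells. The sensing cells answer steroid hormones by releasing paracrine ligands, and the neighbouring luminal and basal cells that lack the steroid receptors respond to these. The oestrogen receptor is needed to switch on Pgr, and the progesterone receptor in turn drives Wnt4 and Tnfsf11 (RANKL) in the mouse gland.

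The positions of the genes on the mouse build GRCm38.p6 (mm10), by RefSeq, are chr10:4611989-5005633 for Esr1, chr9:8898900-8968611 for Pgr, chr15:10177238-10349190 for Prlr, chrX:102247378-102252181 for Cited1, chr14:78277446-78308043 for Tnfsf11, chr4:137277635-137299501 for Wnt4 and chr5:43993621-44102047 for Prom1. All are protein-coding, and the model Gm41268 overlaps Prlr, so that reads of the overlap may belong to either. RefSeq listed 13 start sites for these 7 genes. In the 250 bases before each of them, both strands were searched for the oestrogen response element, made of the half-site GGTCA, any 3 bases and TGACC, for the half-site GGTCA alone, for the progesterone response element, made of GNACA, any 3 bases and TGTNC, for the STAT5 site TTCNNNGAA, at which factors activated by the prolactin receptor bind, and for the forkhead site TGTTTAC. Each full oestrogen response element also contains the half-site on either strand. Neither full hormone response element occurred in any of the 13 windows, against 0.0639% and 0.387% of 32851 mouse promoters of the same length. The half-site occurred in 2 of 13, against 35.2% of all promoters, the STAT5 site in 2 of 13, against 7.02%, and the forkhead site in 1 of 13, against 3.17%. The windows of Prlr and Cited1 are printed because these were the members whose levels in luminal cells differed by more than 1.5-fold between cultures, and each printed window is the one of its gene with the most motif matches, the lower-numbered where tied. Capitals mark the motifs. At the Prlr start they are the forkhead letters 215 bases and the STAT5 letters 110 bases before it, and at the Cited1 start the half-site on the opposite strand 189 bases before it.
Prlr, chr15:10223656-10223905, plus strand: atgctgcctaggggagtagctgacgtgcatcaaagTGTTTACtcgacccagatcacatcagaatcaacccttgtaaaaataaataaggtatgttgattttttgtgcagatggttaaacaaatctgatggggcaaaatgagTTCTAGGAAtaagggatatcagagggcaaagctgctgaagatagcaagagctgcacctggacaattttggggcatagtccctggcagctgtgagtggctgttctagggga
Cited1, chrX:102252182-102252431, minus strand: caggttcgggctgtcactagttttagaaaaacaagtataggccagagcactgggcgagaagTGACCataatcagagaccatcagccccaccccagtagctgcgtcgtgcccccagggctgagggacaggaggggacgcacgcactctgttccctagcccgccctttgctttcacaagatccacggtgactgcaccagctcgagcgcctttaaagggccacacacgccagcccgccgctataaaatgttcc
Which of the listed starts these cells use was not tested, since the libraries count the transcripts near their 3′ ends.

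The matrices held 10615 barcodes with 133608252 unique molecular identifiers (UMIs, each standing for 1 captured transcript) for COL1 and STIFF and 8767 barcodes with 131036333 UMIs for MATR and SOFT. After filtering, 9568 and 7945 barcodes remained, with medians of 10087.5 and 12626 UMIs, and 22 barcodes occurred in both pools (0.207% and 0.251% of the deposited barcodes). Hashtags gave 1563 COL1, 2451 STIFF, 2333 MATR and 1941 SOFT cells. The tags reached the classes unequally: 29.8% and 30.1% of HR-positive luminal-like barcodes of the pools were untagged, against 79.9% and 71.4% of HR-negative luminal-like barcodes. Shares of the classes among tagged cells are therefore set partly by the tagging. Luminal-like clusters were named without the 7 genes, which were also left out of the genes used for clustering. The HR-positive name rested on a list of 9 markers, of which Areg, Foxa1, Ly6a, Cxcl15 and Ly6d were raised in all 3 clusters so named. Of the others, Fxyd2 was raised in the largest of these clusters alone and Tph1 in none of them. Aqp5 and Cp went the other way, raised in the HR-negative cluster and in none of the 3. The HR-negative name rested on 8 of 11 listed markers, Elf5, Kit, Csn3, Ltf, Cd14, Trf, Wfdc18 and Mfge8. A further luminal cluster of 990 cells carried markers of both classes, with a median of 26451.5 UMIs against 12125 in the largest HR-positive cluster. Its median doublet score (Scrublet) was 0.192, the highest of all clusters, against 0.0575 in the largest HR-positive cluster. Whether it holds doublets was not tested. The cluster stayed unnamed and outside the luminal counts. This left 705 COL1, 1266 STIFF, 1562 MATR and 1243 SOFT luminal-like cells, of which 529, 1083, 1250 and 1023 were HR-positive (75.0%, 85.5%, 80.0% and 82.3%).

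Of the 7 genes, 5 were concentrated in the HR-positive luminal-like cells in each of the 4 cultures, Prom1 was spread over luminal-like and basal-like cells, and Tnfsf11 was all but absent. HR-positive cells held 34.9% of the UMIs of all tagged cells, but 64.2% of those of Esr1, 70.6% of Pgr, 67.6% of Prlr, 71.9% of Cited1 and 69.7% of Wnt4. Of the Prom1 UMIs they held 45.4%, and HR-negative cells held 15.2%, about their share of all UMIs (15.2%). The unnamed luminal cluster accounted for 18.2% to 22.4% of the UMIs of each of the 6 detected genes and for 18.8% of all UMIs.

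Esr1, the oestrogen receptor alpha, was present at a low level. In HR-positive cells it reached 32.9 CPM (UMIs of the gene, scaled to 1e6 UMIs of the summed cells) for COL1, 37.1 for STIFF, 32.3 for MATR and 28.5 for SOFT, against 2.35, 4.62, 3.24 and 3.197 in HR-negative cells of the same cultures. The ratio of HR-positive to HR-negative cells was lowest in STIFF (8.03, 95% interval 5.42 to 12.4) and highest in COL1 (14.0, 6.97 to 32.8). Immune-like cells, set beside them as a class outside the epithelium, gave 5.83 CPM for COL1, 13.1 for STIFF, 8.30 for MATR and 5.25 for SOFT. A cluster of low depth in this class (median 1463 UMIs) held 76 of its 225 COL1 cells. Besides immune markers it had raised epithelial ones, among them Krt5, Krt14, Areg and Elf5. After the thinning described next, 74.3%, 61.5%, 73.0% and 77.9% of immune-like cells held none of the 7 genes. These shares cover the 140, 239, 148 and 253 immune-like cells with 5000 UMIs or more. The levels cover all immune-like cells, 225 in COL1. At that depth a minority of the covered cells showed any of the genes, and what free RNA adds to each droplet was not measured. The Esr1 values of HR-negative cells lay below the immune-like ones in each culture, but the interval of the ratio included 1 in COL1 (0.403, 0.148 to 1.01) and SOFT (0.610, 0.328 to 1.13). With each cell thinned to 5000 UMIs so that depths are equal, Esr1 was detected in 15.3% of HR-positive cells for COL1 (exact 95% interval 12.3 to 18.8), 16.8% for STIFF (14.6 to 19.2), 14.3% for MATR (12.4 to 16.4) and 13.5% for SOFT (11.5 to 15.8). Without thinning the shares were 28.7% for COL1, 38.5% for STIFF, 34.6% for MATR and 30.3% for SOFT, at medians of 10361, 12279, 12770 and 12970 UMIs per cell. Immune-like cells thinned alike gave 1.43%, 3.35%, 4.05% and 3.56%, and their medians before thinning were 9339, 17601, 13689 and 16344 UMIs. Thinning left out 33, 22, 39 and 10 HR-positive cells with fewer than 5000 UMIs.

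Pgr, the progesterone receptor and a classical oestrogen target, reached 281 CPM for COL1, 233 for STIFF, 250 for MATR and 217 for SOFT in HR-positive cells. In HR-negative cells it reached 4.99 CPM for COL1, 13.1 for STIFF, 6.84 for MATR and 11.3 for SOFT, all below the 30.3, 68.2, 29.4 and 20.6 CPM of immune-like cells. The thinned share of HR-positive cells with a Pgr UMI was 69.6% for COL1, 63.4% for STIFF, 66.8% for MATR and 64.4% for SOFT, while 4.29%, 17.2%, 8.78% and 6.32% of immune-like cells had one. Without thinning the shares of HR-positive cells were 83.6%, 87.0%, 89.2% and 86.8%. Pgr was thus detected in most HR-positive cells of each culture.

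Prlr, the receptor through which prolactin activates JAK2 and STAT5, was detected in nearly every HR-positive cell: after thinning in 98.0% for COL1, 99.3% for STIFF, 99.5% for MATR and 96.5% for SOFT, and without thinning in 98.5%, 99.9%, 99.8% and 98.6%. Of immune-like cells, 21.4%, 35.6%, 23.6% and 13.8% had a Prlr UMI after thinning. The Prlr level of HR-positive cells was 2276 CPM for COL1, 3092 for STIFF, 2477 for MATR and 1761 for SOFT. HR-negative cells gave 142, 229, 133 and 119 CPM, below the 291, 723, 298 and 157 CPM of immune-like cells. Against fibroblast-like cells, at 101, 314, 182 and 74.0 CPM, the HR-negative level was higher in COL1 (1.40-fold, 1.20 to 1.63) and SOFT (1.61-fold, 1.36 to 1.92) and lower in STIFF and MATR. The Prlr level of immune-like cells was thus highest in STIFF, as it was in HR-positive cells, and lowest in SOFT in both. The part of RNA from other cells in the Prlr comparisons was not tested.

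Cited1, a co-activator that binds the oestrogen receptor, reached 194 CPM for COL1, 304 for STIFF, 232 for MATR and 270.5 for SOFT in HR-positive cells. HR-negative cells gave 8.81 CPM for COL1, 9.59 for STIFF, 6.35 for MATR and 15.8 for SOFT, against 13.2, 72.9, 51.0 and 24.6 CPM in immune-like cells. The order of the cultures in HR-positive cells was STIFF, SOFT, MATR and COL1, and no neighbouring intervals in it overlapped. With tags called by a relative rule, which assigns more cells, MATR (268 CPM) stood above SOFT (247 CPM), so the order of these cultures depends on the tag calls.

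Tnfsf11, the cytokine RANKL through which progesterone acts on neighbouring cells, had 0 UMIs in the luminal-like cells of all 4 cultures. A count of 0 allows up to 3 counts, or 0.295 CPM for COL1, 0.143 for STIFF, 0.116 for MATR and 0.139 for SOFT. Cells with a Tnfsf11 UMI were 0 of 705 in COL1, which allows a share of up to 0.426%, 0 of 1266 in STIFF (up to 0.237%), 0 of 1562 in MATR (up to 0.192%) and 0 of 1243 in SOFT (up to 0.241%). These limits are for cells with a UMI, and cells that express the gene below detection are not bounded by them. Among all tagged cells 5 Tnfsf11 UMIs were counted, 2 in a MATR basal-like cell and 1 each in a fibroblast-like cell of COL1, STIFF and SOFT. At this depth the gene was not detectable in luminal-like cells, including those with Pgr.

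Wnt4, the ligand through which progesterone signals to basal cells, reached 331 CPM for COL1, 315 for STIFF, 368 for MATR and 350.5 for SOFT in HR-positive cells. HR-negative cells gave 9.69, 11.4, 9.08 and 10.2 CPM, below the 45.1, 83.2, 57.0 and 29.4 CPM of immune-like cells. After thinning, 73.4% of HR-positive cells for COL1, 73.0% for STIFF, 78.0% for MATR and 77.2% for SOFT had a Wnt4 UMI, against 7.14%, 15.1%, 8.78% and 7.91% of immune-like cells. Without thinning the shares of HR-positive cells were 87.9%, 90.2%, 92.6% and 93.9%. Wnt4 was therefore detected in most HR-positive cells of every culture although Tnfsf11 was not detected in any.

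Prom1, which encodes the surface protein prominin-1 used to sort mouse hormone-sensing luminal cells, had another distribution. It reached 30.2 CPM for COL1, 20.2 for STIFF, 27.5 for MATR and 27.3 for SOFT in HR-positive cells, against 17.9, 12.4, 19.3 and 26.9 CPM in HR-negative cells. The ratio of HR-positive to HR-negative cells was 1.69 for COL1 (1.26 to 2.28), 1.63 for STIFF (1.25 to 2.14), 1.43 for MATR (1.19 to 1.72) and 1.01 for SOFT (0.85 to 1.21). Basal-like cells held it at 23.9 CPM for COL1, 17.7 for STIFF, 20.9 for MATR and 22.8 for SOFT, while immune-like cells gave 5.44, 9.74, 7.17 and 3.57 CPM. Its interval in HR-negative cells lay above that of immune-like cells in COL1, MATR and SOFT and overlapped it in STIFF. By transcript, Prom1 separated the luminal-like classes by less than 2-fold in every culture, whereas Esr1, Pgr, Prlr, Cited1 and Wnt4 differed by 8.03-fold (Esr1 in STIFF) to 56.2-fold (Pgr in COL1).

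**Figure D1:**
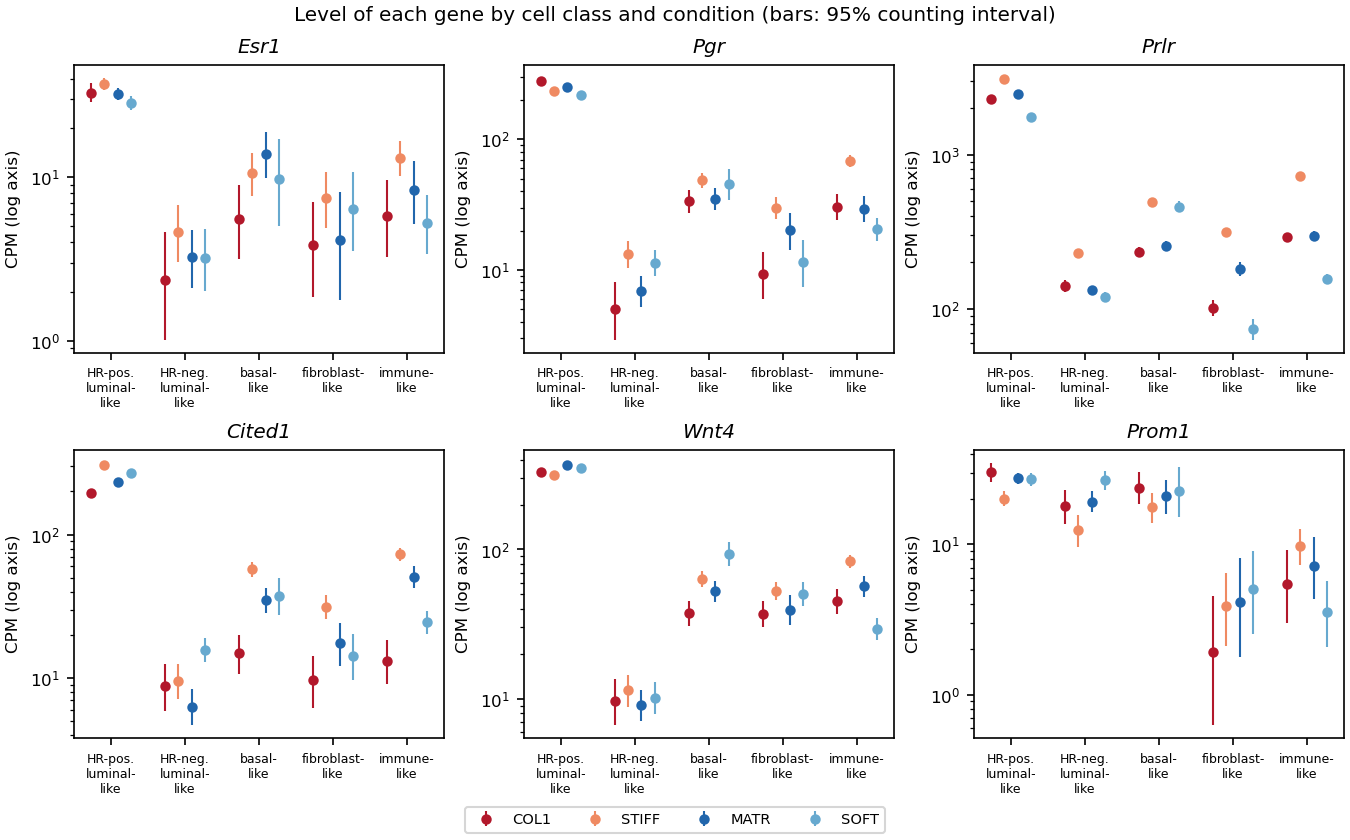
Level of 6 of the genes in CPM (log axis) in 5 cell classes, with a point for each culture and its exact 95% counting interval; Tnfsf11 is left out because it had 0 UMIs in luminal-like cells. Esr1, Pgr, Prlr, Cited1 and Wnt4 are highest in HR-positive luminal-like cells in each culture, and Prom1 lies between 12.4 and 30.2 CPM in HR-positive, HR-negative and basal-like cells.

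Between cultures, most of the genes differed by less than 1.5-fold in luminal-like cells. A gene counted as measured where 1 of both cultures reached 5 CPM, which held for 6 of the 7 in each comparison, all but Tnfsf11. The 4 comparisons use each culture in a pair of them and are not independent.

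For STIFF over SOFT, Prlr was the single member past 1.5-fold. It reached 2324 CPM in STIFF luminal-like cells and 1239 CPM in SOFT luminal-like cells, 1.88-fold higher (1.85 to 1.90). Of 9875 genes measured, 7.24% were past this fold in either direction, and a single gene of 6 is read as no more than that background gives. Esr1 was at 28.4 CPM in STIFF and 20.5 CPM in SOFT (1.39-fold), Pgr at 174 and 151 CPM (1.15-fold), Cited1 at 225 and 189 CPM (1.19-fold) and Wnt4 at 234 and 242 CPM (0.965-fold). Prom1 lay just inside the threshold at 18.1 CPM in STIFF and 27.1 CPM in SOFT, a ratio of 0.668 (0.586 to 0.762), and passed it with trimmed mean scaling or with the unnamed luminal cluster counted in.

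For COL1 over STIFF, which shared a channel, Cited1 was the single member past 1.5-fold, at 132 CPM in COL1 and 225 CPM in STIFF, a ratio of 0.587 (0.553 to 0.624). Of 9890 genes measured, 4.56% were past the fold. Prlr lay just inside the threshold at 1561 CPM in COL1 and 2324 CPM in STIFF (ratio 0.671, 0.660 to 0.684). Prom1 was at 26.1 CPM in COL1 and 18.1 CPM in STIFF (1.44-fold, 1.22 to 1.69), Esr1 at 22.6 and 28.4 CPM (0.798), Pgr at 188 and 174 CPM (1.08) and Wnt4 at 223 and 234 CPM (0.955). Tags called by the relative rule left Cited1 within the threshold at 131 CPM in COL1 and 185 CPM in STIFF, a ratio of 0.710.

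No member passed 1.5-fold in the other comparisons. For COL1 over MATR, where 4.02% of 9837 genes did, the ratios ran from 0.817 for Cited1 (132 CPM in COL1, 162 in MATR) to 1.08 for Pgr (188 and 175 CPM). For MATR over SOFT, where 4.34% of 9756 genes did, they ran from 0.854 for Cited1 (162 CPM in MATR, 189 in SOFT) to 1.41 for Prlr (1751 and 1239 CPM). Taking the 4 cultures together, Prlr was ordered STIFF, MATR, COL1 and SOFT in luminal-like cells with no overlap of neighbouring intervals. Esr1 was highest in STIFF, while the intervals of MATR (21.5 to 25.2), COL1 (19.8 to 25.8) and SOFT (18.6 to 22.5) overlapped. Cited1 was ordered STIFF, SOFT, MATR and COL1, again without overlap, but under the relative tag rule MATR and SOFT were nearly level, at 153 and 155 CPM. Pgr was lowest in SOFT (146 to 157), and Prom1 was lowest in STIFF (16.4 to 20.1) while its intervals in the other 3 overlapped. Wnt4 varied least, between 223 CPM in COL1 and 257 CPM in MATR. These orders are of luminal-like sums, in which HR-positive cells made up 75.0% (COL1) to 85.5% (STIFF) of cells, shares set partly by the tagging. In HR-positive cells alone the orders of Prlr and Cited1 were the same. Esr1 was at 32.9 CPM in COL1 and 37.1 in STIFF there, and Wnt4 was lowest in STIFF (315 CPM, against 331 in COL1).

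**Figure D2:**
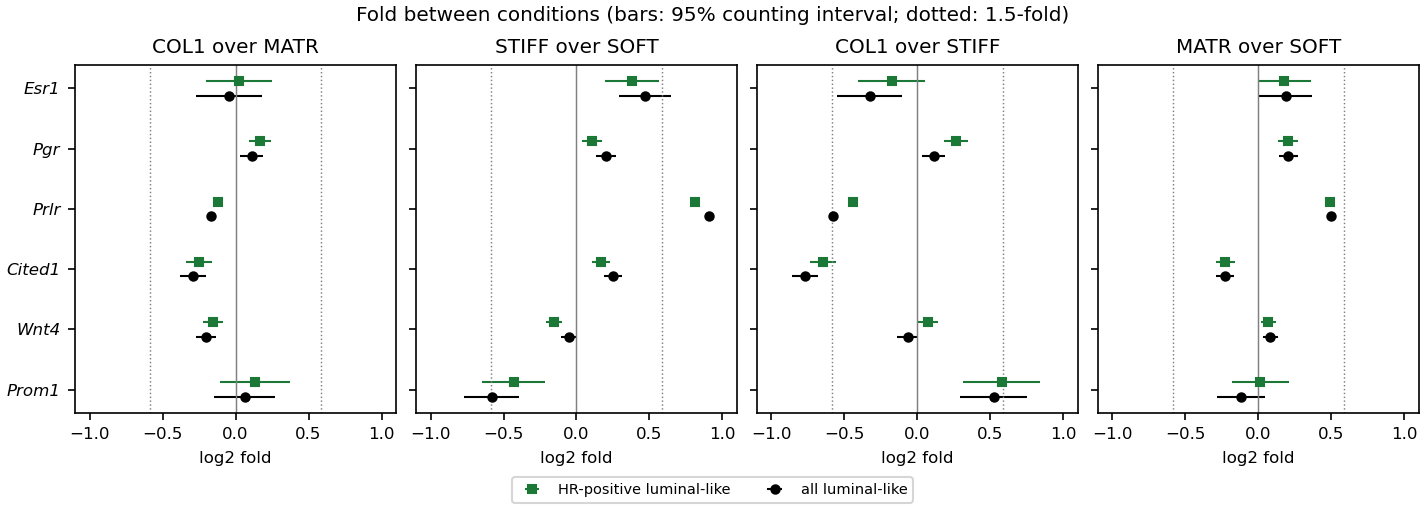
Log2 fold of 6 genes in 4 comparisons of cultures, in HR-positive luminal-like cells (squares) and in all luminal-like cells (circles), with 95% counting intervals and dotted lines at 1.5-fold. Prlr in STIFF over SOFT (0.91 on the log2 scale in luminal-like cells) and Cited1 in COL1 over STIFF (-0.77) lie past the lines.

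Within HR-positive cells alone both differences stood, at 1.76-fold for Prlr in STIFF over SOFT (1.73 to 1.78; 9.25% of genes past the fold) and a ratio of 0.640 for Cited1 in COL1 over STIFF (0.601 to 0.680; 6.61% of genes). Under the relative tag rule the Cited1 ratio in these cells was 0.748, within the threshold. None of the 6 passed 1.5-fold in these cells in COL1 over MATR, where 7.41% of genes did, or in MATR over SOFT, where 6.12% did. The HR-positive cells comprised 3 clusters: cluster 0, led by Klk1b27, Klk1 and Defb14, cluster 1, led by Reg3b and Calcb, and cluster 6, led by Muc13 and Ido1. Their proportions differed by culture. Cluster 0 made up 34.8% of HR-positive cells for COL1, 68.6% for STIFF, 62.2% for MATR and 19.8% for SOFT, cluster 1 47.4%, 30.5%, 21.7% and 59.7%, and cluster 6 17.8%, 0.923%, 16.2% and 20.4%.

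Prlr was higher in cluster 0 than in cluster 1 in each culture, at 3196 against 1868 CPM for COL1, 3704 against 1867 for STIFF, 2838 against 1916 for MATR and 2771 against 1562 for SOFT. STIFF and MATR, where cluster 0 held most HR-positive cells, were also the cultures with the higher Prlr levels over all of these cells. Within a cluster, Prlr in STIFF over SOFT was 1.34-fold (1.30 to 1.37) in cluster 0 and 1.20-fold (1.16 to 1.23) in cluster 1, so it was past 1.5-fold in neither of these.

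Cited1 differed between COL1 and STIFF within cluster 0, at 170 CPM in COL1 and 360 CPM in STIFF (ratio 0.473, 0.426 to 0.524). In cluster 1 it was at 177 CPM in COL1 and 191 CPM in STIFF (0.927, 0.834 to 1.03). Under the relative tag rule the ratio in cluster 0 was 0.521, still past 1.5-fold. In cluster 1 that rule turned the direction, at 226 CPM in COL1 and 192 CPM in STIFF (1.18), and gave 1.57 in MATR over SOFT. The direction between COL1 and STIFF in cluster 1 thus depends on the tag calls. Cluster 6 held only 10 STIFF cells and gave no usable COL1 over STIFF comparison. There, however, Cited1 was at 148 CPM in MATR and 320.0 CPM in SOFT (0.463, 0.411 to 0.521), and at 296 CPM in COL1, so its order over the cultures was not the same in the 3 clusters. Whether these ratios differ between clusters beyond the variation between cultures was not tested, with 1 culture per condition.

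**Figure D3:**
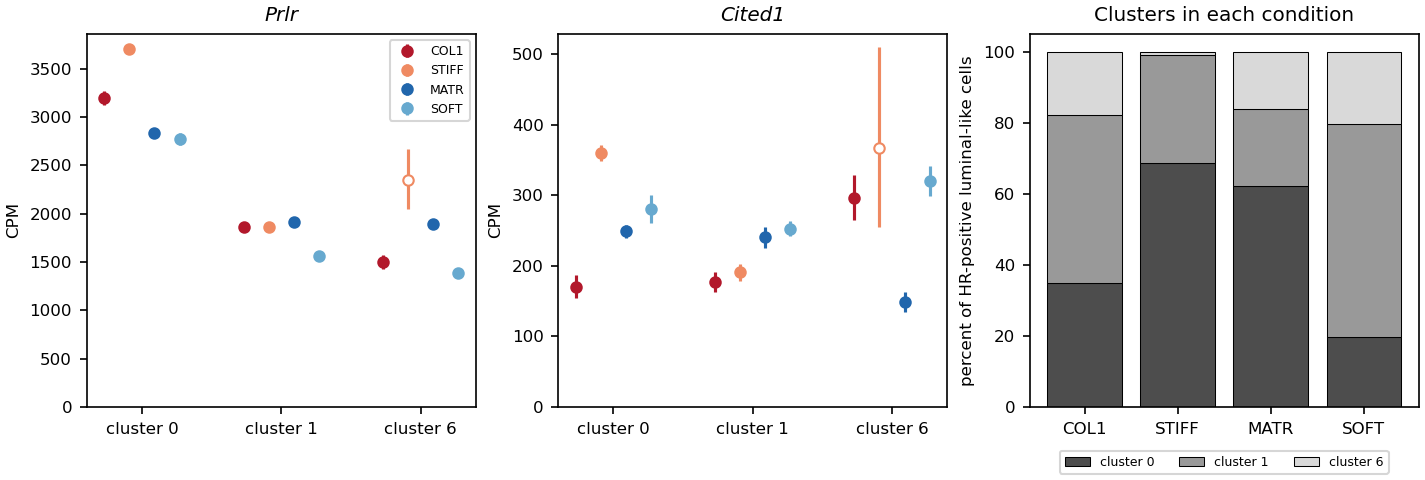
Prlr and Cited1 in CPM in the 3 HR-positive luminal-like clusters, by culture with 95% counting intervals (open point: 10 cells), and the percent of HR-positive cells in each cluster. Prlr is higher in cluster 0 than in cluster 1 in every culture, and cluster 0 holds 68.6% of HR-positive cells in STIFF and 19.8% in SOFT.

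In cluster 0 Pgr reached 307 CPM for COL1, 247 for STIFF, 255 for MATR and 255.0 for SOFT, against 256, 203, 208 and 189 CPM in cluster 1. Esr1 reached 38.5, 42.1, 35.0 and 40.5 CPM in cluster 0, against 28.6, 27.3, 21.8 and 25.6 CPM in cluster 1. Both receptors thus had the higher value in cluster 0 in each culture, as Prlr did, with overlapping intervals for Esr1 in COL1 alone. Wnt4 was lower in cluster 0 than in cluster 1 in STIFF, at 285 against 378 CPM, and in MATR, at 362 against 398 CPM. In SOFT (342 against 360 CPM, ratio 0.951, 0.884 to 1.02) and COL1 (339 against 341 CPM, ratio 0.992, 0.905 to 1.09) the interval included 1, and under the relative tag rule SOFT stood the other way, at 362 against 357 CPM. Prom1 had its highest value in cluster 6 in the 3 cultures that filled it, at 48.1 CPM in COL1, 49.3 in MATR and 38.9 in SOFT, against 35.4, 28.0 and 25.2 CPM in cluster 1 and 14.6, 21.9 and 22.5 CPM in cluster 0. The interval of cluster 6 over cluster 1 included 1 in COL1 (1.36, 0.966 to 1.89) and not in MATR (1.76, 1.37 to 2.28) or SOFT (1.54, 1.22 to 1.95).

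In HR-negative cells the levels of Esr1, Pgr, Prlr, Cited1 and Wnt4 were below those of immune-like cells in value. The interval of the ratio included 1 for Cited1 in COL1 (0.667, 0.394 to 1.12) and for Esr1 in COL1 and SOFT. Whether the levels in HR-negative cells come from these cells or from free RNA was not tested. Prlr there was at 229 CPM in STIFF and 119 CPM in SOFT, 1.92-fold (1.76 to 2.10). Prom1 in HR-negative cells was at 12.4 CPM in STIFF and 26.9 CPM in SOFT, a ratio of 0.462 (0.346 to 0.612), where 10.3% of genes were past 1.5-fold. Its ratio was 0.929 in COL1 over MATR (7.58% of genes past 1.5-fold), 1.44 in COL1 over STIFF (8.18%) and 0.717 in MATR over SOFT (6.15%), all within 1.5-fold. Other members passed 1.5-fold in this class too. In COL1 over STIFF, Pgr was at 4.99 CPM in COL1 and 13.1 in STIFF, and Prlr at 142 and 229 CPM. By the levels given above, Pgr and Cited1 were also past it in MATR over SOFT, lower in MATR. Cited1 was past it in STIFF over SOFT as well, lower in STIFF. Which members passed differed under the relative tag rule.

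Cited1 was unevenly spread over HR-positive cells, unlike Pgr and Wnt4 of similar mean count. After thinning to 5000 UMIs, it was detected in 36.3% of HR-positive cells for COL1 (32.1 to 40.7), 50.9% for STIFF (47.8 to 53.9), 40.7% for MATR (37.9 to 43.5) and 44.4% for SOFT (41.3 to 47.5), and without thinning in 51.2%, 67.5%, 58.3% and 61.8%. Of immune-like cells, 0.714%, 13.0%, 6.08% and 4.74% had a Cited1 UMI after thinning. The same mean spread evenly over the cells, as a Poisson distribution, would give 62.7%, 78.2%, 67.1% and 75.7%. For Pgr the observed shares were 69.6%, 63.4%, 66.8% and 64.4%, against 76.0%, 69.2%, 71.5% and 68.3% for an even spread.

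The variance of the Cited1 count was 5.29 times its mean for COL1, 5.49 for STIFF, 5.72 for MATR and 6.06 for SOFT. It was 1.60, 1.30, 1.29 and 1.26 times the mean for Pgr and 1.35, 1.41, 1.32 and 1.31 times for Wnt4. The 10% of HR-positive cells with the most Cited1 held 64.2% of its UMIs for COL1, 54.0% for STIFF, 61.6% for MATR and 59.2% for SOFT, against 33.3%, 32.2%, 31.3% and 32.6% for Pgr. In each culture 10% of the HR-positive cells thus carried most of the Cited1 UMIs. The excess was present inside the clusters as well: in cluster 0 the variance was 5.24 times the mean for COL1, 5.78 for STIFF, 6.14 for MATR and 4.88 for SOFT, and in cluster 1 it was 4.53, 3.42, 5.82 and 6.59 times.

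**Figure D4:**
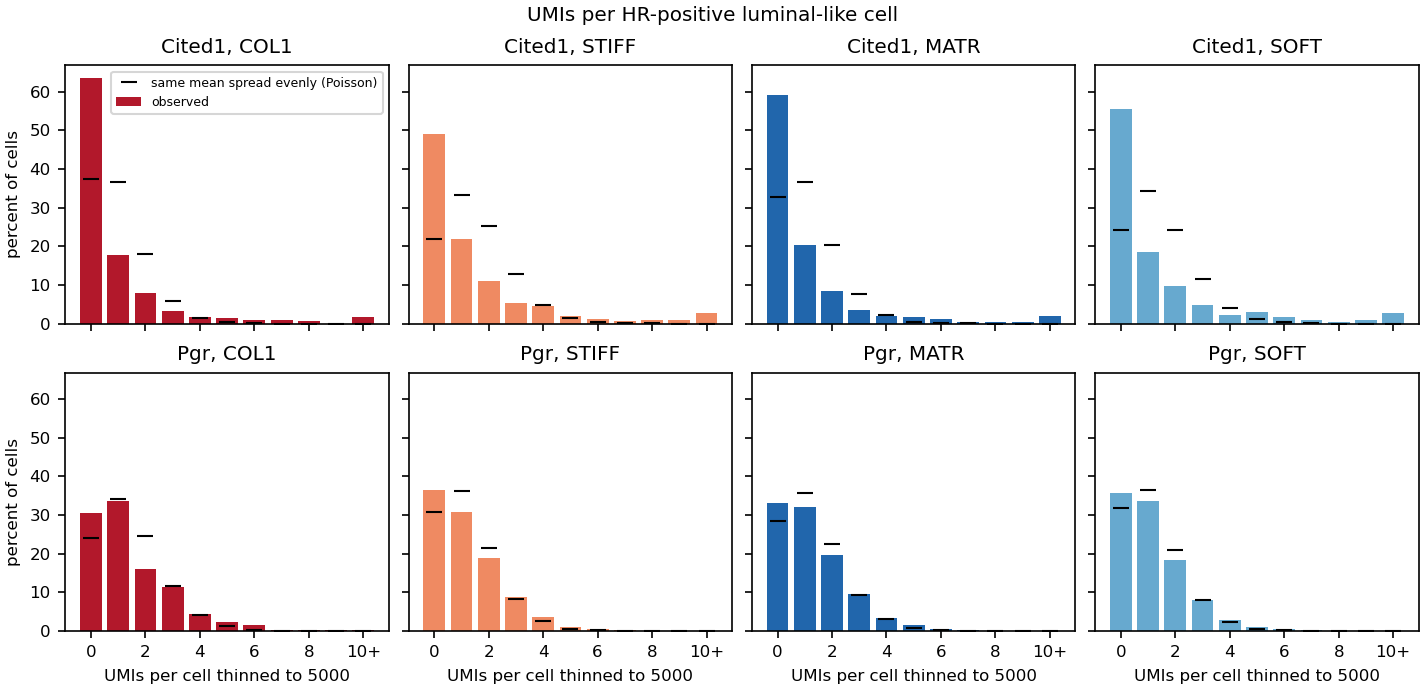
Percent of HR-positive luminal-like cells (vertical axis) by the number of UMIs of Cited1 (upper row) or Pgr (lower row) per cell thinned to 5000 UMIs, in each culture; dashes give a Poisson distribution of the same mean. Cited1 has more cells at 0 and at 10 or more UMIs than the even spread, while Pgr lies near it.

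Among all luminal-like cells the genes were detected together more often than independent detection would give. The luminal-like cells at this depth numbered 665 for COL1, 1244 for STIFF, 1511 for MATR and 1231 for SOFT. Of cells with an Esr1 UMI, 73.7% for COL1, 70.9% for STIFF, 67.04% for MATR and 66.0% for SOFT had a Pgr UMI, against 49.6%, 51.8%, 52.3% and 51.9% of cells without Esr1. The share with both genes was 1.41 times the product of the separate shares for COL1, 1.30 for STIFF, 1.24 for MATR and 1.23 for SOFT. Over the 15 pairs that leave out Tnfsf11, the median of this ratio was 1.19 for COL1, 1.09 for STIFF, 1.13 for MATR and 1.14 for SOFT.

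Within HR-positive cells the medians lay between 0.999 in MATR and 1.01 in SOFT. The Esr1 and Pgr ratio there was 1.06 for COL1, 1.14 for STIFF, 1.04 for MATR and 1.05 for SOFT, above 1 in all 4. In STIFF, 72.5% of HR-positive cells with Esr1 (65.3 to 78.9) and 61.6% of those without (58.3 to 64.8) had a Pgr UMI, and in the other 3 cultures the intervals overlapped. Cited1 and Wnt4 went together slightly less than independently in COL1 (0.961), STIFF (0.951) and MATR (0.957) and not in SOFT (1.01). The single pairs spread more widely than these medians, from 0.932 (Esr1 and Wnt4) to 1.24 (Cited1 and Prom1) for COL1, from 0.901 (Pgr and Prom1) to 1.31 (Esr1 and Prom1) for STIFF, from 0.898 (Cited1 and Prom1) to 1.06 (Esr1 and Prom1) for MATR and from 0.937 (Esr1 and Cited1) to 1.20 (Pgr and Prom1) for SOFT. A pair with Prlr, which nearly every HR-positive cell held, cannot move far from 1. Correlations of the log counts across HR-positive cells ran from -0.13 to 0.22, and in such sparse counts they are a description only.

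**Figure D5:**
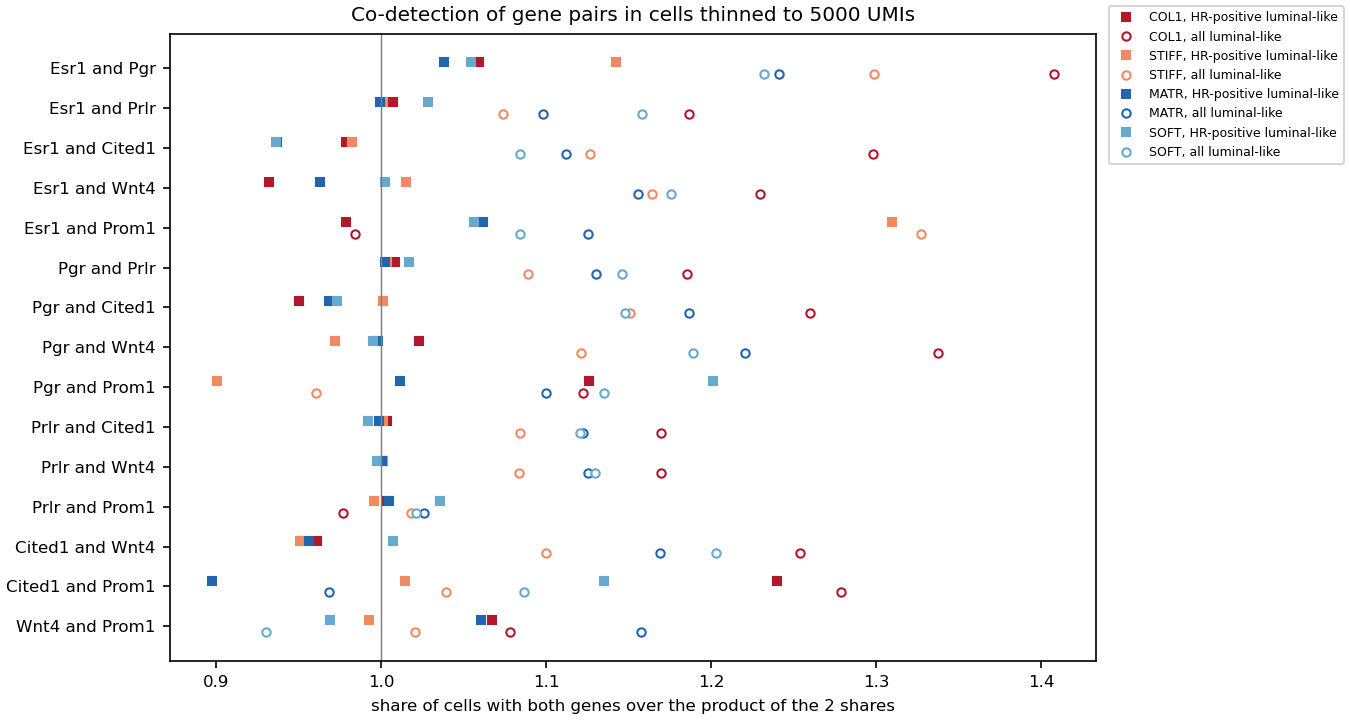
Share of cells with both genes of a pair over the product of the separate shares (horizontal axis), for 15 pairs and 4 cultures in cells thinned to 5000 UMIs; squares are HR-positive luminal-like cells and circles all luminal-like cells. Pairs without Prom1 lie above 1 in luminal-like cells; in HR-positive cells all 15 pairs run from 0.898 to 1.31, with Esr1 and Pgr at 1.04 to 1.14.

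Most HR-positive cells showed several of the genes at this depth: 3 were detected in 44.4% of them for COL1, 41.5% for STIFF, 43.4% for MATR and 40.0% for SOFT, and 4 in 22.2%, 26.7%, 27.4% and 27.0%. Cells with 6 numbered 1 for COL1, 3 for STIFF, 1 for MATR and 4 for SOFT.

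Across 19 sums of luminal clusters by culture, the genes most like each member were listed from 6876 candidates, by Pearson correlation of log2(CPM + 1). Unlike the luminal counts, the sums include the unnamed luminal cluster in each culture (125 COL1, 452 STIFF, 275 MATR and 138 SOFT cells). These sums share libraries, and the HR-negative ones were the lowest for Esr1, Pgr, Prlr, Cited1 and Wnt4, so that any gene low in that class ranks high. The nearest were C2, Lmx1b and Dnajc3 for Esr1 (r 0.985, 0.985 and 0.983), Stc2, Cysrt1 and Gipc2 for Pgr (0.993, 0.992 and 0.992), and Tmem86a, Tmem56 and Pcp4 for Prlr (0.995, 0.989 and 0.989). For Cited1 they were Rac1, Ggt1 and Tmem54 (0.980, 0.978 and 0.978), and for Wnt4 Slc12a2, Tspan1 and the luminal transcription factor Tbx3 (0.996, 0.995 and 0.995). Prom1 had weaker neighbours, Sdc4, Fstl3 and Pkp1 (0.893, 0.882 and 0.877), and its correlation with the 5 other detected members was 0.231 (Prlr) to 0.438 (Pgr).

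The wider pathway was counted over 4 lists in luminal-like cells. The shares of all genes measured that were past 1.5-fold, higher and lower, were 2.7% and 1.31% for COL1 over MATR, 4.24% and 3.0% for STIFF over SOFT, 2.23% and 2.33% for COL1 over STIFF, and 1.83% and 2.5% for MATR over SOFT. Of 19 steroid receptor partners and targets, 18 were measured in luminal-like cells. Foxa1, the pioneer factor that opens chromatin for the oestrogen receptor, was at 149 to 175 CPM in HR-positive cells over the 4 cultures and at 5.29 to 7.99 in HR-negative cells. Greb1, an oestrogen target, was at 71.1 to 134 CPM in HR-positive cells and 2.74 to 4.97 CPM in HR-negative cells. Past 1.5-fold were 0 of 18 in STIFF over SOFT and in COL1 over STIFF, 1 lower in COL1 over MATR (Ccnd1, 106 against 162 CPM) and 2 higher in MATR over SOFT, among them Greb1 (93.1 against 49.4 CPM). The median log2 ratios of this list, -0.02 to 0.09, are to be read beside -0.05 to 0.04 over all genes measured.

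Of the prolactin signal chain, 11 or 12 of 12 genes were measured. In STIFF over SOFT 2 were higher and 0 lower, among them Stat5a, the factor that prolactin activates, at 34.9 CPM in STIFF and 21.2 CPM in SOFT. In MATR over SOFT 2 were again higher, with Stat5a at 48.1 CPM in MATR and 21.2 CPM in SOFT. In COL1 over MATR 2 were higher, among them Socs3, an inhibitor of cytokine signals (82.5 CPM in COL1, 53.7 in MATR), and 1 was lower, the growth hormone receptor Ghr (19.6 CPM in COL1, 29.7 in MATR). In COL1 over STIFF 1 was higher, Socs1 (5.22 CPM in COL1, 3.28 in STIFF), and 0 lower. Stat5a in HR-positive cells was at 45.6 CPM for COL1, 43.8 for STIFF, 65.3 for MATR and 26.3 for SOFT, so SOFT was lowest for both Stat5a and Prlr while the highest culture differed. Elf5, the target of prolactin signalling that drives milk-producing cell fate, was at 285 to 377 CPM in HR-negative cells and 6.59 to 8.73 CPM in HR-positive cells.

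Among other paracrine ligands, 7 of 14 were measured. Areg, the EGF receptor ligand through which oestrogen acts on neighbouring cells, was at 2964 CPM for COL1, 3491 for STIFF, 3120 for MATR and 2753 for SOFT in HR-positive cells. Areg, Foxa1 and Elf5 were among the markers that named the classes, so their division between the classes is no result. Wnt5a was at 104 to 128 CPM and Wnt7b at 58.1 to 88.5 CPM in these cells. Calca, which encodes calcitonin and the peptide CGRP, was the single one of the 7 past 1.5-fold in STIFF over SOFT (194 CPM in STIFF, 43.3 in SOFT), in COL1 over MATR (118 CPM in COL1, 61.3 in MATR) and in COL1 over STIFF (118 CPM in COL1, 194 in STIFF), and none was past it in MATR over SOFT. Calca is among the 10 leading genes of cluster 0. In HR-positive cells alone, 8 ligands were measured. Past 1.5-fold were, for COL1 over MATR 3, for STIFF over SOFT 4, for COL1 over STIFF 1 and for MATR over SOFT 2. Of all genes measured in HR-positive cells, 7.41%, 9.25%, 6.61% and 6.12% were past this fold, in the same order. Each of these shares was above that of luminal-like cells. Whether the ligand counts exceed this background was not tested. Wnt11, the lowest of the ligands in MATR over SOFT, was at 1.45 CPM in MATR and 5.83 CPM in SOFT. It had the highest or the lowest ligand ratio in each comparison of HR-positive cells. Its level there was at most 5.92 CPM, close to the 5 CPM filter.

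Of 21 genes by which cells receive these signals, 12 were lower in HR-positive cells than in both HR-negative and basal-like cells in each culture, among them Tnfrsf11a, Egfr and Axin2, while 2 were higher than in HR-negative cells and 1 higher than in basal-like cells in each culture. These counts compare the values alone, with no threshold, and include genes of very low level. How many of all genes measured meet the same rule was not counted. The 12 of 21 is therefore no result about these genes as a set. Tnfrsf11a, the RANKL receptor, was at 12.4 to 17.9 CPM in HR-negative cells and 0.888 to 1.79 CPM in HR-positive cells, although its ligand Tnfsf11 was not detected in luminal-like cells. Egfr, the receptor of Areg, was at 12.8 to 23.4 CPM in HR-negative and 18.7 to 26.1 CPM in basal-like cells, against at most 0.585 CPM in HR-positive cells. Axin2, a target of canonical WNT signalling, was at 10.5 to 15.7 CPM in basal-like cells and at most 0.592 CPM in HR-positive cells. In luminal-like cells 13 or 14 of the 21 receiver genes were measured. Past 1.5-fold were 1 in STIFF over SOFT (Egfr, 6.71 against 4.11 CPM), 1 in COL1 over STIFF (Fzd8, 8.17 against 4.66 CPM) and 0 in the other comparisons. The median log2 ratios ran from 0.02 to 0.09 for the prolactin chain, from -0.12 to 0.05 for the ligands and from -0.06 to 0.04 for the receivers over the 4 comparisons.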

How the data were processed

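Single cells of 2 pools (COL1 with STIFF, MATR with SOFT) were profiled with a droplet 3′ assay and antibody hashtags. The deposited matrices hold raw UMI counts per gene and barcode, and mm10, Cell Ranger 5.0.0 and Seurat 4.2.0 appear in the submitters' processing notes. The rule by which barcodes entered these matrices is not given in the sources used here. Each pool was deposited in 2 entries with the same gene counts (0 differing), and each was read from the entry with antibody rows.

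The 7 genes and all gene lists were chosen with earlier results of these data known. Kept barcodes had 1000 UMIs and 500 genes or more, with mitochondrial UMIs no higher than 15%. Tags were called with HTODemux (Seurat 5.3.0, R 4.3.3, quantile 0.99). Barcodes with both tags (305 and 277) or neither (5249 and 3394) were left out. Scrublet marked 754 kept barcodes, which were not removed, and an alternative left out the 336 and 282 tagged cells with the highest scores. Cells were clustered with scanpy 1.11.5 and igraph 0.11.9 (1999 variable genes without the 7, 30 components, 15 neighbours, Leiden resolution 0.5, no integration). Clusters were named by marker lists of which 3 genes or more reached 20 CPM and exceeded the other clusters' median 2-fold, unless a rival list reached 0.5 of its mean log2 ratio. Clusters are numbered from the largest to the smallest by tagged cells.

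Counts were summed per culture and class and divided by the total (CPM). Levels have exact Poisson, ratios exact binomial and shares Clopper-Pearson 95% intervals. Cells are not replicates, so no p-value was computed. The fold rule was tested on simulated counts. Named genes are the 7, the 3 most like each, the list member with the highest and the lowest ratio in a comparison, and Areg, Foxa1, Tnfrsf11a, Axin2, Stat5a and Elf5. Alternatives were the tag rule, the cells counted, the cell filter, scaling (edgeR 4.0.16, TMM only), level filters, doublet scores, the threshold and the thinning depth.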

Additional observations from a re-analysis of the deposited data

How the results depend on the processing

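No paired analysis was possible because each condition had 1 culture. Counts of members past 1.5-fold in luminal-like cells were as reported (1 each for STIFF over SOFT and COL1 over STIFF, 0 for both others) with HR-positive cells alone, a stricter cell filter (3000 UMIs, 1000 genes, 10% mitochondrial UMIs), level filters of 2 or 20 CPM, and without the cells of highest doublet score. In STIFF over SOFT the count was 2 with the unnamed luminal cluster included and 2 with trimmed mean of M-values scaling, where Prom1 joined Prlr as lower, and 0 at a threshold of 2-fold. In COL1 over STIFF it was 0 at 2-fold and 0 under the relative tag rule. The cause was not tested. Co-detection of Esr1 and Pgr was nearer to independence in HR-positive cells alone than in all luminal-like cells in each culture. This fall was largest in COL1 (1.06 in HR-positive cells alone, 1.41 in all). Under the relative tag rule co-detection among luminal-like cells moved in MATR alone (1.503, against 1.24 as reported). It was counted as unchanged with thinning to 3000 or 10000 UMIs. Of 24 member ratios, none changed direction where it was past 1.5-fold; 9 moved by more than their counting interval under the relative tag rule, 9 with the unnamed cluster, 9 with HR-positive cells alone and 5 with trimmed mean scaling. Counting intervals understate the error, since cultures were not replicated. At this depth Esr1 and Prom1 were undetected in most HR-positive cells, and Tnfsf11 in all luminal-like cells.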
